A study of Mus musculus with 12 samples.

Results

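The genes described here are 6 matrix metalloproteinases, Mmp2, Mmp3, Mmp12, Mmp13, Mmp14 and Mmp19, and the 4 tissue inhibitors of metalloproteinases, Timp1, Timp2, Timp3 and Timp4. They were taken by name from the gene expression matrices of the study, where they are 10 of 32245 genes, and were read in macrophages, fibroblasts, smooth muscle cells and endothelial cells of the mouse aorta. Single-cell RNA sequencing from the 5' end of transcripts (10x Genomics) was run on 4 libraries, 1 for each group of mice. All 4 groups were labelled ApoE-/- (without apolipoprotein E, a carrier of blood lipids, so that a fatty diet gives atherosclerosis), were 8 weeks old at the start and were kept for 24 weeks. Healthy mice had normal food and saline. Atherosclerosis (AS) model mice had food with 1% cholesterol and 10% fat, and saline. MTZ-treated mice had the same fatty food and methazolamide (MTZ, a carbonic anhydrase inhibitor, spelled methoxazolamide in the labels) at 25 mg/kg over the last 12 weeks, and MTZ-preventive mice had MTZ at 25 mg/kg with the fatty food for all 24 weeks. Each library pooled 6 aortas from a group of 18 mice, so every difference below is between 2 libraries with no replicate check, no test was possible, and all limits cover counting error only.

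Matrix metalloproteinases are zinc enzymes that cut collagens, elastin, fibronectin and other proteins of the extracellular matrix, and also release growth factors and cytokines from it. Most are secreted in an inactive form, and Mmp14 is held in the cell membrane, where it activates Mmp2 together with Timp2. The tissue inhibitors bind the active site of the proteases. In the atherosclerotic artery, matrix cutting by macrophages, smooth muscle cells and fibroblasts is known to go with remodelling of the vessel wall and with thinning of the fibrous cap of a plaque.

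The libraries held 11121 (Healthy), 2160 (AS), 6796 (MTZ-treated) and 14186 (MTZ-preventive) cells after filtering, with median depths of 1298 to 1904 UMIs per cell, AS being the shallowest. UMIs are tags that mark single captured molecules. Any pair of libraries shared 24 to 236 cell barcodes, at most 2.19% of the cells of a library. Apoe, the deleted gene, was read at 702 CPM (UMIs of a gene per 1000000 UMIs of the library or class) in the library labelled Healthy and at 8.29 to 12.2 CPM in the other 3, so the level in the library labelled Healthy went against its ApoE-/- label. Every comparison below that uses this library is therefore a comparison with the library so labelled.

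Cells were put in the class of which they showed the most markers, at least 3 of 10. This gave 1804, 367, 1930 and 3682 fibroblasts, 2004, 545, 2429 and 3668 smooth muscle cells and 603, 401, 1058 and 1436 endothelial cells in the libraries labelled Healthy, AS, MTZ-treated and MTZ-preventive, in that order. Macrophages numbered 33, 85 and 117 in the first 3 libraries. The MTZ-preventive library held 10, under the minimum of 20 cells, so no macrophage value under this rule is given for it. The classes carried their own markers, with exceptions mostly in AS. The smooth muscle cells of AS held their own 10 markers at a summed 19034 CPM against 39831 to 47112 CPM in the other 3 libraries, and Acta2, the smooth muscle actin, at 5379 CPM. In the same cells the 10 macrophage markers summed to 507 CPM (115 to 168 CPM elsewhere) and the adipocyte markers to 1346 CPM (115, 82.6 and 646 CPM in the libraries labelled Healthy, MTZ-treated and MTZ-preventive), so part of this class went against its name. A second rule, chosen after the data were seen, used the share of a cell's UMIs from the markers of each class. It put a cell in the class whose share stood highest above the average cell, at least 2-fold, with at least 3 markers detected. It left 92 smooth muscle cells in AS, with their own markers at 51879 CPM and the macrophage list at 182 CPM. These sums are in part built into the rule, which selects on the same lists. The rule also leaves out any smooth muscle cells low in these markers. Its values are called those of the enrichment gate and are given beside the results they changed.

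Sequences upstream of 3 members are shown because these 3 carry the results below: Mmp3, Timp1 and Mmp12. Among members that reached 50 CPM in fibroblasts, Mmp3 and Timp1 were the protease and the inhibitor with the largest shifts there. Mmp12 is the protease of macrophages. They are RefSeq promoters of the mouse build GRCm38.p6, from 250 bases before to 50 bases after the annotated transcript start, all on the plus strand. RefSeq promoters were found for 8 of the 10 members, and none was matched for Mmp2 and Mmp19. Capitals mark matches to TGANTCA, the letters bound by AP-1 factors such as Fos and Jun, and to TATAAA, the TATA box.

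Mmp3 (chr9:7445572-7445871): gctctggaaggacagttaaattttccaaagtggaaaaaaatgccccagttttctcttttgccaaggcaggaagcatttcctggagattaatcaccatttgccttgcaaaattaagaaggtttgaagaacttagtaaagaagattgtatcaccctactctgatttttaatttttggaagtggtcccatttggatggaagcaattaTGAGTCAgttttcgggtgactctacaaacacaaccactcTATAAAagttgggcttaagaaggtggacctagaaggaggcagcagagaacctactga
Mmp12, downstream start (chr9:7347124-7347423): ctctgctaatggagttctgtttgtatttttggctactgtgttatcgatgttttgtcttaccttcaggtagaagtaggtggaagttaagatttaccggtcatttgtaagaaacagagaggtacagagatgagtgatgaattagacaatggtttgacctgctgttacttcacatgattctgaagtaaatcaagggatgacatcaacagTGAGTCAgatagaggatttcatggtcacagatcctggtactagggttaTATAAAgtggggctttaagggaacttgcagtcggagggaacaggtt
Timp1 (chrX:20869916-20870215): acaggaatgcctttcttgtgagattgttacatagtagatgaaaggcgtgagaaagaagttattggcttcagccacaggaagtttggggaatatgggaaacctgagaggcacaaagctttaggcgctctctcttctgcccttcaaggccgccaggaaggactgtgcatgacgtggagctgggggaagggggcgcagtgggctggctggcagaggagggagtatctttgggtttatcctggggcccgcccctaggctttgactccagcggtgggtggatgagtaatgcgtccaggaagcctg

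Among the members, TGANTCA was matched in Mmp3 (first base at -46, counted from the start), in the downstream Mmp12 promoter (-44) and in Mmp13 (-35), each followed by TATAAA (-7, 5 and -16). Both motifs were searched on both strands and neither overlapped the other. TGANTCA was matched in 7.81% and TATAAA in 13.6% of all 32851 RefSeq promoters of this length. Neither motif was matched in the windows of Mmp14, of the 4 inhibitors or of the upstream Mmp12 start. A match describes the letters only. Mmp3, Mmp12 and Mmp13 lie close together on chromosome 9.

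The 10 genes fell into groups by the cells that held them. Fibroblasts held most of the Mmp2, Mmp3 and Timp1 UMIs in all 4 libraries. Endothelial and smooth muscle cells together held most of the Timp4 UMIs, and among the 4 classes Timp3 was highest in endothelial cells. By 3 markers, macrophages held 96.4% of the Mmp12 UMIs in MTZ-treated but 26.2% in AS, where the smooth muscle gate held 52.7%. Under the enrichment gate macrophages held 264 of the 465 Mmp12 UMIs of AS, and smooth muscle cells held none. Between libraries, Timp1 was 6.34-fold higher in fibroblasts of AS than in those of the library labelled Healthy, while Timp2 was lower, and Timp4 in endothelial cells was 4.78-fold lower in MTZ-treated than in AS. Macrophages had no Mmp12 UMI in the library labelled Healthy and many in AS and MTZ-treated, where a few cells carried a large part of them.

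**Figure D1:**
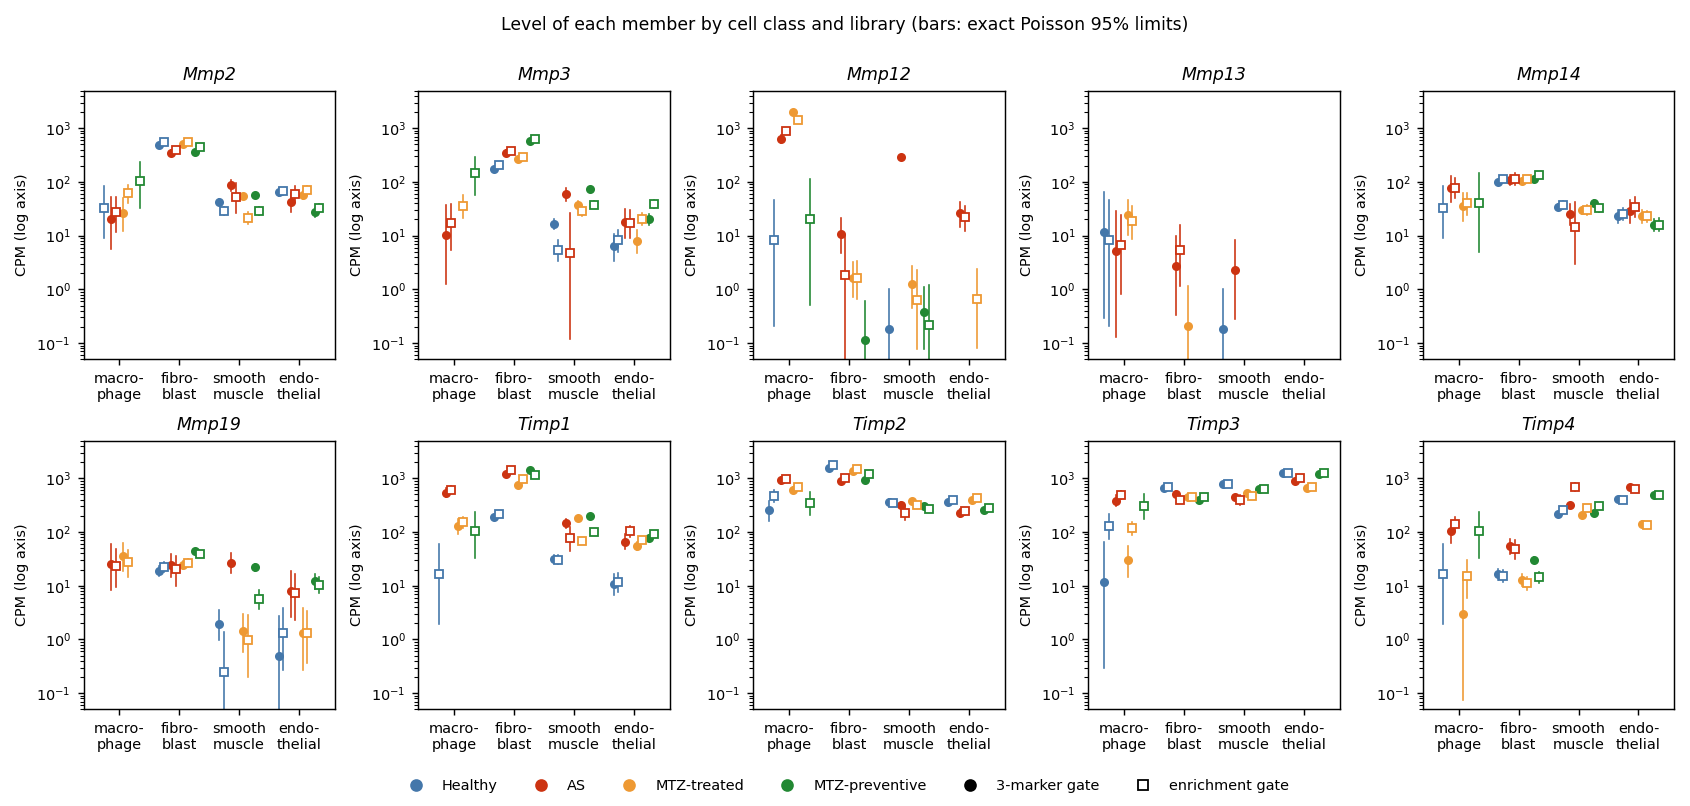
Level of the 10 genes in CPM (log axis, values of 0 not drawn) in macrophages, fibroblasts, smooth muscle cells and endothelial cells of the 4 libraries, shown by colour. Filled circles are the gate on 3 markers, open squares the enrichment gate, and bars are exact Poisson 95% limits. Timp1 in fibroblasts lay at 191 CPM for the library labelled Healthy and between 757 and 1420.3 CPM for the 3 groups on fatty food.

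Mmp2 (ENSMUSG00000031740, chromosome 8, 92827290 to 92853421 in GRCm38.p6, the build of all gene positions given here), gelatinase A, cuts denatured collagen and basement membrane collagen. In fibroblasts it was read at 481 CPM in the library labelled Healthy (95% limits 460.5 to 501), 348 CPM in AS (307 to 394), 518 CPM in MTZ-treated (498 to 539) and 358 CPM in MTZ-preventive (346 to 371). The library labelled Healthy and MTZ-treated were thus high, AS and MTZ-preventive low, and the limits of the high pair did not overlap those of the low pair. The AS level was 0.725 times that of the library labelled Healthy (0.635 to 0.825). The MTZ-treated level was 1.49 times the AS level (1.31 to 1.70), and the MTZ-preventive level 1.03 times (0.905 to 1.17). None of these reached 2-fold. Smooth muscle cells held 41.7, 87.5, 53.6 and 56.4 CPM in the libraries labelled Healthy, AS, MTZ-treated and MTZ-preventive, and under the enrichment gate 28.8, 52.8, 21.7 and 29.0 CPM. Endothelial cells held 65.1, 42.2, 57.9 and 27.2 CPM in that order. Macrophages held few Mmp2 UMIs, at 20.5 CPM in AS (4 UMIs) and 26.8 CPM in MTZ-treated (9 UMIs). Fibroblasts were the highest class in every library and held 61.4% to 82.5% of each library's Mmp2 UMIs.

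Mmp14 (ENSMUSG00000000957, chromosome 14, 54431598 to 54442456), the membrane-bound activator of Mmp2, stayed within a narrow range in fibroblasts, at 98.7 CPM in the library labelled Healthy, 109 CPM with AS, 104 CPM in MTZ-treated and 113 CPM in MTZ-preventive. The 3 ratios lay between 0.953 and 1.11, and their limits all included 1, so a difference of more than 1.41 times lay outside them in each case. Levels in smooth muscle cells (25.7 to 41.3 CPM) and endothelial cells (15.9 to 29.2 CPM) were lower. Fibroblasts held 48.5% to 65.0% of the Mmp14 UMIs of a library, and were the highest class in each, though in AS their limits overlapped those of macrophages. In macrophages Mmp14 had no UMI in the library labelled Healthy, 15 UMIs in AS (77.0 CPM, 43.1 to 127) and 12 UMIs in MTZ-treated (35.8 CPM, 18.5 to 62.5).

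Mmp3 (ENSMUSG00000043613, chromosome 9, 7445822 to 7455975), stromelysin-1, cuts a broad range of matrix proteins and activates other proteases of the family. In fibroblasts it was read at 175 CPM in the library labelled Healthy (limits 163 to 188), 342 CPM in AS (301 to 386), 271 CPM in MTZ-treated (257 to 286) and 583 CPM in MTZ-preventive (568 to 599). None of these limits overlapped. MTZ-preventive was the high library and the library labelled Healthy the low one. AS stood at 1.95 times the library labelled Healthy (1.69 to 2.25), MTZ-treated at 0.794 times AS (0.693 to 0.912) and MTZ-preventive at 1.71 times AS (1.5 to 1.94). A few cells carried much of this. In AS, 3 of the 367 fibroblasts held 43.5% of the Mmp3 UMIs. Without the 3 highest cells of each library the levels were 142, 201, 253 and 531 CPM, with MTZ-treated above AS. But 3 cells are a larger part of the 367 fibroblasts of AS than of the 1930 of MTZ-treated. The top 5% of fibroblasts held 88.7%, 73.1%, 62.4% and 75.4% of the Mmp3 UMIs in the same order of libraries. No order of AS and MTZ-treated is therefore read.

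The share of fibroblasts with an Mmp3 UMI, after thinning each cell to 1000 UMIs, was 5.54%, 16.9%, 14.7% and 17.6% in the libraries labelled Healthy, AS, MTZ-treated and MTZ-preventive (9.65%, 20.2%, 20.9% and 24.3% unthinned). Lymphocytes, which should lack the gene, showed it in 0% to 0.435% of cells after thinning. Median depths were 1271 to 1631 UMIs in fibroblasts and 1564 to 2171 UMIs in lymphocytes, of which AS had 18 cells, so that 0 of 18 there allows a share of up to 16.7% (3 of 18). Mmp3 was also read in smooth muscle cells at 16.4, 59.5, 37.5 and 74.6 CPM. Under the enrichment gate these were 5.41, 4.80, 28.5 and 37.5 CPM. The higher level of AS over the library labelled Healthy was not seen there, but AS held 1 UMI, so no direction is read. Endothelial levels stayed between 6.37 and 20.3 CPM. Fibroblasts held 70.1% to 83.4% of the Mmp3 UMIs of a library.

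Within the 6 proteases, the make-up of fibroblast transcripts shifted between Mmp2 and Mmp3. Mmp2 took 62.2% of their protease UMIs in the library labelled Healthy, 41.6% of those of AS, 56.3% of those of MTZ-treated and 32.6% of those of MTZ-preventive, and Mmp3 took 22.6%, 40.8%, 29.5% and 53.1%. In AS, 3 cells held 43.5% of the Mmp3 UMIs, so the AS shares rest in part on them. These shares compare libraries, and not genes, since UMIs were not scaled for length or capture.

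**Figure D2:**
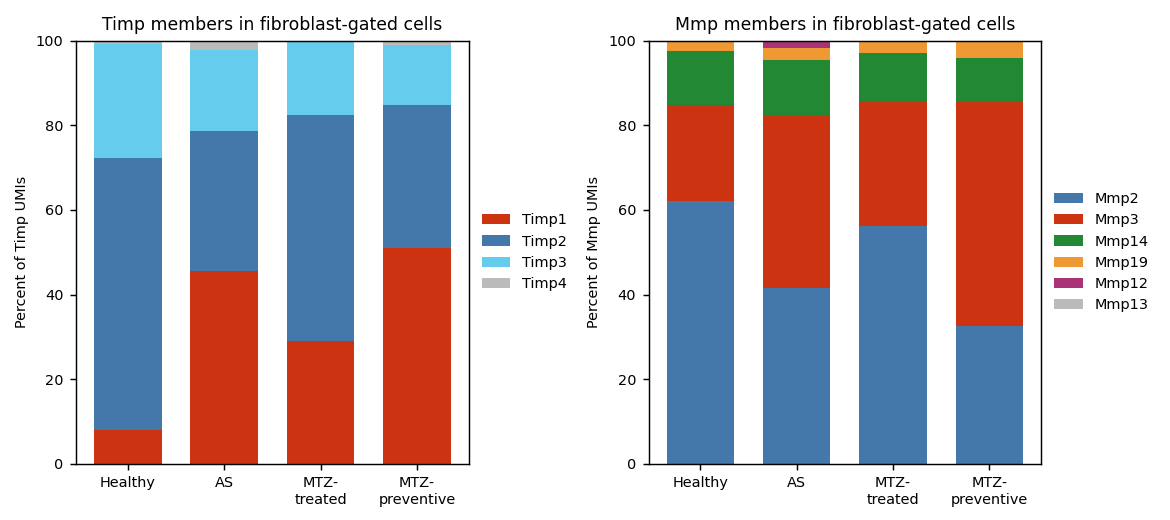
Percent of the inhibitor UMIs (left) and of the protease UMIs (right) of fibroblasts taken by each gene, stacked to 100%, in the 4 libraries. Timp1 took 7.88% of inhibitor UMIs in the library labelled Healthy and 45.5%, 29.1% and 51.0% in AS, MTZ-treated and MTZ-preventive, and Timp2 took 64.4%, 33.1%, 53.3% and 33.7% in the same order.

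Mmp12 (ENSMUSG00000049723, chromosome 9, 7344397 to 7360461), macrophage elastase, cuts elastin. Over whole libraries it had 4 UMIs in the library labelled Healthy (0.142 CPM), 465 in AS (124 CPM), 685 in MTZ-treated (45.9 CPM) and 15 in MTZ-preventive (0.457 CPM). In these sums fewer macrophages and less RNA per macrophage cannot be told apart. Among macrophages it was at 0 of 86286 UMIs in the library labelled Healthy, which allows up to 34.8 CPM (3 UMIs, the limit set here for a count of 0), at 627 CPM in AS (520.3 to 748) and at 1967 CPM in MTZ-treated (1820.2 to 2123). Against that limit AS was at least 18-fold higher than the library labelled Healthy, and the exact lower 95% limit of the ratio, which is wider, was 14.4. MTZ-treated was 3.14 times AS (2.59 to 3.84), but this ratio rested on a few cells. In AS, 36 of 85 macrophages held the 122 UMIs and the top 3 cells held 44.3%. In MTZ-treated, 14 of 117 held the 660 UMIs, the top cell held 239, and the top 3 held 81.5%.

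Without the 3 highest cells of each library the Mmp12 levels were 384 CPM in AS and 414 CPM in MTZ-treated, a log2 ratio of 0.11 in place of 1.65. The share of macrophages with an Mmp12 UMI ran the other way from the summed level, at 31.8% in AS (22.1 to 42.8) and 7.69% in MTZ-treated (3.58 to 14.1) after thinning to 1000 UMIs, and unthinned in 36 of 85 (42.4%) against 14 of 117 cells. No order of the 2 libraries is therefore read from these values. In the library labelled Healthy 0 of 33 macrophages had a UMI, which allows a share of cells with a UMI of up to 9.09% (3 of 33, the same limit of 3 counts). Lymphocytes showed an Mmp12 UMI in 0% to 0.102% of thinned cells. Under the enrichment gate the levels were 8.14 CPM in the library labelled Healthy and 894 CPM in AS. They were 1407 CPM in MTZ-treated and 20.6 CPM in MTZ-preventive. The values of the library labelled Healthy and MTZ-preventive lie near the limit of detection, in macrophage totals of 122824 and 48630 UMIs. In MTZ-preventive the 26 cells gated as macrophages carried more UMIs of smooth muscle markers (10056 CPM) than of macrophage markers (5161 CPM).

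**Figure D3:**
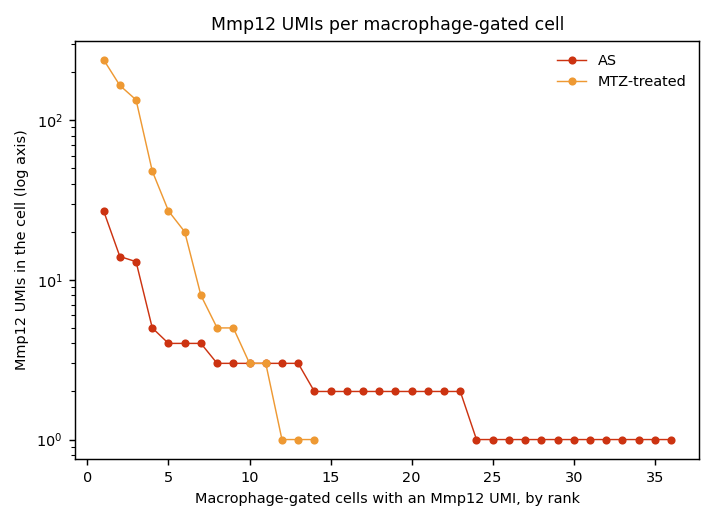
UMIs of Mmp12 in each macrophage that had at least 1, ranked from highest to lowest (log axis), for AS (36 of 85 cells) and MTZ-treated (14 of 117 cells). The top MTZ-treated cell held 239 UMIs and the top AS cell 27.

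Of the Mmp12 UMIs of macrophages, 120 of 122 in AS and 656 of 660 in MTZ-treated lay in cells with the markers of lipid-laden foam cells (at least 2 of Trem2, Gpnmb, Spp1, Fabp5, Itgax and Atp6v0d2, and more of these than of resident markers). Such cells were 66 of 85 macrophages in AS (77.6%) and 50 of 117 in MTZ-treated (42.7%), and they held Mmp12 at 753 and 3505 CPM. The MTZ-treated level rests on the few high cells given above, so no order is read here either. Spp1, osteopontin and 1 of these markers, was at 17733 CPM in AS macrophages and 4829 CPM in those of MTZ-treated. The smooth muscle cells of AS held 245 Mmp12 UMIs (286 CPM, 251 to 324), against 0.180, 1.24 and 0.374 CPM in the other libraries. Lyz2 (616 CPM) and Tyrobp (279 CPM), genes of myeloid cells, were read in the same AS cells, as was Spp1 (797 CPM), which is not limited to myeloid cells. The 92 cells of the enrichment gate held no Mmp12 UMI. In AS endothelial cells Mmp12 was at 26.0 CPM (16 UMIs), with the macrophage list at 319.7 CPM against 84.2 to 104 CPM in the other 3 libraries. Of all Mmp12 UMIs, macrophages by 3 markers held 96.4% in MTZ-treated but 26.2% in AS, where the smooth muscle gate held 52.7% and cells of no class 15.1%. Under the enrichment gate macrophages held 264 of the 465 in AS and 662 of the 685 in MTZ-treated.

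Mmp13 (ENSMUSG00000050578, chromosome 9, 7272514 to 7283333), a collagenase that opens fibrillar collagen, was near the limit of detection. It had 1, 1 and 8 UMIs in macrophages of the libraries labelled Healthy, AS and MTZ-treated (11.6, 5.14 and 23.8 CPM), and 0 UMIs in endothelial cells of all 4 libraries. Fibroblasts and smooth muscle cells held at most 2 in any library. Within each of these classes the limits of the libraries overlapped. Over all cells it was at 1.60 CPM in AS (0.587 to 3.48, 6 UMIs) and 0.603 CPM in MTZ-treated (9 UMIs), against the 0.0712 CPM of the library labelled Healthy (2 UMIs) and the 0.0305 CPM of MTZ-preventive (1 UMI).

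Mmp19 (ENSMUSG00000025355, chromosome 10, 128790910 to 128800827), a protease of basement membrane proteins, stayed under 50 CPM in all 4 classes, the level from which ratios were read. Fibroblasts held 18.8, 24.3, 24.6 and 43.7 CPM in the libraries labelled Healthy, AS, MTZ-treated and MTZ-preventive. Macrophages held no UMI in the library labelled Healthy, 5 UMIs in AS (25.7 CPM) and 12 UMIs in MTZ-treated. In MTZ-treated they ranked above fibroblasts, with overlapping limits. Smooth muscle cells held 1.98, 26.8, 1.45 and 22.3 CPM and endothelial cells 0.490, 8.12, 1.32 and 12.2 CPM, both high in AS and MTZ-preventive. In those same libraries cells gated as adipocytes held Mmp19 at 76.2 CPM (55.6 to 102, AS) and 147 CPM (134 to 161, MTZ-preventive), and 39.5% and 38.6% of all Mmp19 UMIs. The 10 adipocyte markers were also higher in endothelial cells of these libraries, at 437 and 394 CPM against 41.6 and 42.1 CPM in those labelled Healthy and MTZ-treated. The part of adipocyte RNA in the endothelial and smooth muscle values was not tested.

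Timp1 (ENSMUSG00000001131, chromosome X, 20870166 to 20874737) is the inhibitor that is induced by cytokines and injury. In fibroblasts it was read at 191 CPM in the library labelled Healthy (limits 179 to 204), 1213 CPM in AS (1134 to 1294), 757 CPM in MTZ-treated (733 to 782) and 1420.3 CPM in MTZ-preventive (1396 to 1445). All 3 libraries on fatty food lay above the library labelled Healthy, and MTZ-treated lay lowest of the 3. AS was 6.34-fold above the library labelled Healthy (5.77 to 6.97), with a ratio of 6.61 under the enrichment gate. MTZ-treated was 0.625 times AS (0.580 to 0.673). The ratio of MTZ-preventive to AS was 1.17 (1.09 to 1.25) and turned to 0.798 (0.741 to 0.860) under the enrichment gate, so no order is read between these libraries.

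In the same fibroblasts the thinned share of cells with a Timp1 UMI was 13.4% in the library labelled Healthy (11.8 to 15.0), 48.0% in AS (42.7 to 53.2), 31.7% in MTZ-treated (29.6 to 33.8) and 35.0% in MTZ-preventive (33.4 to 36.5). Unthinned, the shares were 25.9%, 56.9%, 46.6% and 47.5%, and thinned lymphocytes showed Timp1 in 0% to 0.920% of cells. The level in MTZ-preventive was carried by a smaller share of the cells than in AS. The top 5% of fibroblasts there held 69.7% of the Timp1 UMIs, with 719 in the highest cell, against 39.1% and 43 UMIs in AS, 53.6% and 155 UMIs in MTZ-treated, and 42.4% and 14 UMIs in the library labelled Healthy.

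Fibroblasts with matrix markers (at least 2 of Fbn1, Postn, Cthrc1, Comp, Col8a1 and Eln) carried the larger Timp1 shift. They held 214 CPM in the library labelled Healthy, 2936 CPM in AS, 1244 CPM in MTZ-treated and 4441 CPM in MTZ-preventive. Fibroblasts with adventitial markers (at least 2 of Pi16, Dpp4, Clec3b, Penk, Sema3c and Cd248) held 203, 780.4, 569 and 797 CPM. AS over the library labelled Healthy was 13.7 (11.3 to 16.7) in the matrix subset and 3.84 (3.29 to 4.48) in the adventitial subset. MTZ-treated stood at 0.424 times AS (0.380 to 0.472) in matrix cells and 0.729 times in adventitial cells, while MTZ-preventive stood at 1.51 times (1.38 to 1.66) and 1.02 times. The adventitial ratio of MTZ-preventive to AS turned to 0.690 (0.597 to 0.801) under the enrichment gate, and that of matrix cells 1.40 (1.27 to 1.55). The matrix subset held 216 of 1804, 85 of 367 (23.2%), 286 of 1930 (14.8%) and 320 of 3682 (8.69%) fibroblasts in the libraries labelled Healthy, AS, MTZ-treated and MTZ-preventive. Eln, 1 of its markers, was itself lower in AS fibroblasts, so these shares depend on genes that differed. Mmp3 was at 462 CPM in AS and 1085 CPM in MTZ-preventive in matrix cells, and at 211 and 417 CPM in adventitial cells, the AS values holding the few high cells named above. For Mmp3, AS over the library labelled Healthy was 2.33 (1.73 to 3.12) in matrix cells. In adventitial cells it was 1.24 (0.945 to 1.61), limits that include 1. MTZ-treated was 0.659 times AS (0.509 to 0.862) in matrix cells and 1.20 times (0.934 to 1.57) in adventitial cells.

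Outside fibroblasts, Timp1 of smooth muscle cells was at 31.7, 146, 186 and 203 CPM in the libraries labelled Healthy, AS, MTZ-treated and MTZ-preventive, and at 30.8, 76.8, 67.6 and 99.7 CPM under the enrichment gate. AS was 4.61 times the library labelled Healthy (3.63 to 5.83), and 2.5 times (1.38 to 4.22) under the enrichment gate. Endothelial cells held 10.8 CPM (6.75 to 16.3), 66.5 CPM (47.8 to 90.3), 55.3 CPM (46.0 to 65.8) and 78.7 CPM (69.6 to 88.6). The library labelled Healthy was again the low library. The AS limits overlapped those of both MTZ libraries, which did not overlap each other. In endothelial cells AS was 6.18 times the library labelled Healthy (3.59 to 10.9). Macrophages had no Timp1 UMI in the library labelled Healthy, 539 CPM in AS (441 to 653) and 128 CPM in MTZ-treated (92.8 to 173), a ratio of 0.238 (0.163 to 0.342) between the last 2. Under the enrichment gate macrophage Timp1 was at 16.3, 613 and 153 CPM in these 3 libraries, and the AS level of endothelial cells was 103 CPM. The 10 fibroblast markers in the macrophages by 3 markers summed to 232, 1597 and 629 CPM in the same order, and the part of fibroblast RNA in the macrophage values was not tested.

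**Figure D4:**
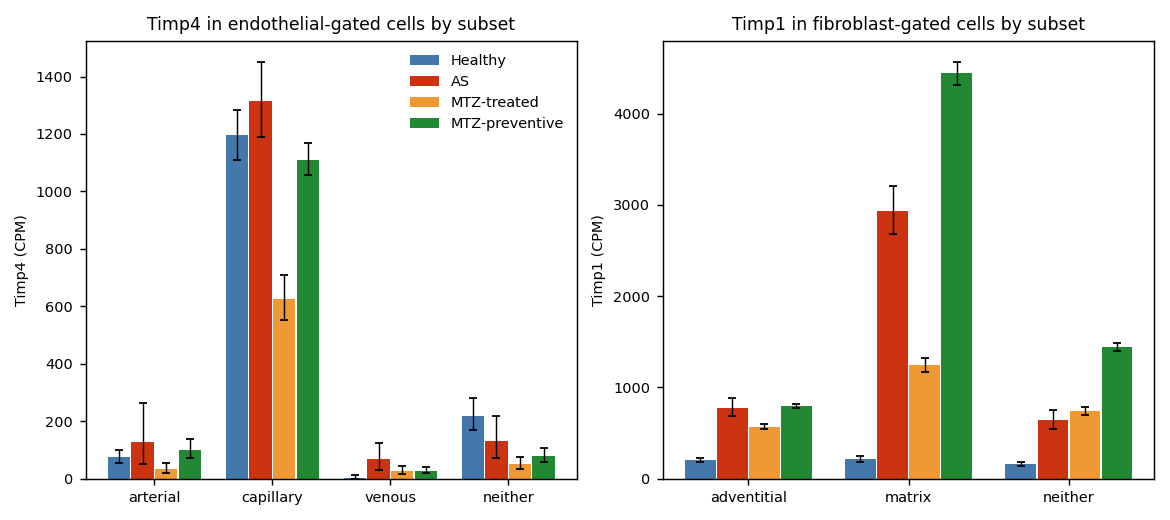
Levels in CPM of Timp4 in arterial, capillary, venous and other endothelial cells (one panel) and of Timp1 in adventitial, matrix and other fibroblasts (other panel), by library, with exact Poisson 95% limits. Capillary cells held Timp4 at 627 to 1315 CPM and the other named endothelial subsets at 4.06 to 127 CPM.

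Timp2 (ENSMUSG00000017466, chromosome 11, 118301061 to 118355411), which also takes part in the activation of Mmp2 by Mmp14, ran broadly opposite to Timp1 in fibroblasts. It was read at 1562 CPM in the library labelled Healthy (limits 1525 to 1599), 883 CPM in AS (817 to 953), 1388 CPM in MTZ-treated (1355 to 1421) and 939 CPM in MTZ-preventive (919 to 959). As for Mmp2, the library labelled Healthy and MTZ-treated were high and AS and MTZ-preventive low. AS was 0.565 times the library labelled Healthy (0.521 to 0.613) and MTZ-treated 1.57 times AS (1.45 to 1.71), while MTZ-preventive was 1.06 times AS. In endothelial cells the same pair of libraries was high, at 359.9, 227, 394 and 252 CPM in the libraries labelled Healthy, AS, MTZ-treated and MTZ-preventive. The endothelial ratios were 0.631 (0.523 to 0.757) for AS to the library labelled Healthy and 1.73 (1.45 to 2.09) for MTZ-treated to AS. Capillary endothelial cells went the other way, at 38.5, 141, 116 and 83.4 CPM, under the 317 to 623 CPM of arterial and 329 to 416 CPM of venous cells. The share of capillary cells among endothelial cells was 29.5%, 47.4%, 21.6% and 42.8%, high in the libraries where endothelial Timp2 was low. Within subsets, MTZ-treated to AS was 1.23 (0.793 to 1.99) in arterial, 0.824 (0.533 to 1.28) in capillary and 1.27 (0.935 to 1.74) in venous cells. These limits all include 1, though the arterial ratio was 1.69 (1.15 to 2.56) under the enrichment gate. AS to the library labelled Healthy was 0.643 (0.398 to 0.986), 3.66 (2.16 to 6.31) and 0.797 (0.571 to 1.09) in the same order of subsets. The part of the capillary share in the endothelial value was not tested.

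Smooth muscle Timp2 lay between 311 and 372 CPM in the 4 libraries, and under the enrichment gate AS was low, at 230.3 CPM against 274 to 342 CPM. In macrophages Timp2 was at 255 CPM in the library labelled Healthy (limits 159.8 to 386), 929.5 CPM in AS (799 to 1075) and 608 CPM in MTZ-treated (528 to 698). It took 47.5% of the inhibitor UMIs of macrophages in AS and 79.1% in MTZ-treated. AS was 3.65 times the library labelled Healthy (2.34 to 5.96), or 2.05 times under the enrichment gate, and MTZ-treated was 0.654 times AS (0.533 to 0.804). In AS the macrophage and fibroblast levels of Timp2 overlapped in their limits, whereas in the library labelled Healthy and in MTZ-treated fibroblasts were higher.

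Timp3 (ENSMUSG00000020044, chromosome 10, 86300412 to 86349505), which binds to the matrix and also inhibits proteases of the ADAM and ADAMTS families, was highest in endothelial cells in every library. It was read there at 1276 CPM in the library labelled Healthy (limits 1228 to 1326), 876 CPM in AS (804 to 954), 667 CPM in MTZ-treated (634 to 701) and 1181 CPM in MTZ-preventive (1145 to 1218). AS and MTZ-treated were the low libraries. AS was 0.687 times the library labelled Healthy (0.625 to 0.754), MTZ-treated 0.761 times AS (0.689 to 0.841) and MTZ-preventive 1.35 times AS (1.23 to 1.48). Arterial endothelial cells held 1701, 1292, 845 and 2698 CPM, capillary cells 1386, 1077, 847 and 1144 CPM and venous cells 654, 389, 399.6 and 563 CPM. Between AS and MTZ-preventive the arterial level was 2.09 times higher (1.64 to 2.69), from 32 and 143 cells, and the capillary level 1.06 times (0.942 to 1.20).

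Smooth muscle cells were the next class in 3 of the 4 libraries (in AS fibroblasts were), with Timp3 at 773, 449, 533 and 628 CPM, AS being lowest at 0.581 times the library labelled Healthy (0.522 to 0.645). Those with pericyte markers held 1096, 499.8, 815 and 982 CPM. Fibroblasts held 655, 516, 448 and 394 CPM, and AS was there 0.787 times the library labelled Healthy (0.706 to 0.876) by 3 markers, or 0.590 times under the enrichment gate. Both MTZ ratios to AS in fibroblasts turned from 0.869 and 0.764 to 1.11 under the enrichment gate, and no direction is read from them. In AS, the limits of fibroblasts, smooth muscle cells and macrophages overlapped from each to the next. Macrophages had 1 Timp3 UMI in the library labelled Healthy, 75 UMIs in AS (385 CPM) and 10 UMIs in MTZ-treated (29.8 CPM), beside 81.1, 539 and 104 CPM of endothelial markers in the same cells. Under the enrichment gate these levels of Timp3 were 130.3, 488 and 117 CPM. The part of endothelial RNA in them was not tested.

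Timp4 (ENSMUSG00000030317, chromosome 6, 115244444 to 115252205) is the inhibitor best known from heart and vessels. In endothelial cells it was read at 419 CPM in the library labelled Healthy (limits 392 to 448), 688 CPM in AS (624 to 757), 144 CPM in MTZ-treated (129 to 160.3) and 492 CPM in MTZ-preventive (469 to 516). AS was the high library and MTZ-treated the low one, with no overlap between any limits. AS was 1.64 times the library labelled Healthy (1.46 to 1.85). MTZ-treated was 4.78-fold below AS (4.13 to 5.54), and MTZ-preventive was 0.715 times AS (0.642 to 0.797). The thinned share of endothelial cells with a Timp4 UMI was 20.7%, 31.9%, 11.6% and 24.9% (28.9%, 37.4%, 16.7% and 33.4% unthinned), in the same order of libraries as the level. Lymphocytes showed it in 0% to 0.716% of thinned cells. Median endothelial depths were 2395, 1378, 1639 and 1935 UMIs.

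Among endothelial cells, Timp4 lay mainly in those with capillary markers (at least 2 of Rgcc, Car4, Cd36, Gpihbp1, Aqp7 and Cd300lg), the subset whose share was high in AS and MTZ-preventive, as given above. Capillary cells held 1195, 1315, 627 and 1111 CPM in the libraries labelled Healthy, AS, MTZ-treated and MTZ-preventive. Arterial cells held 75.5, 127, 33.4 and 101 CPM and venous cells 4.06, 67.1, 28.6 and 28.0 CPM. Within capillary cells AS was 1.10 times the library labelled Healthy (0.972 to 1.25), limits that include 1, MTZ-treated was 0.477 times AS (0.406 to 0.559) and MTZ-preventive 0.845 times AS (0.756 to 0.946). The lower MTZ-treated level was therefore present within capillary cells, at 2.10-fold below AS where all endothelial cells gave 4.78-fold.

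Timp4 was also a gene of smooth muscle cells, at 216, 313, 211 and 225 CPM in the libraries labelled Healthy, AS, MTZ-treated and MTZ-preventive. In the enrichment gate AS stood further apart, at 681 CPM (574 to 803) against 252 CPM (237 to 268), 278 CPM (259.6 to 297) and 305 CPM (289.6 to 322). The AS ratio to the library labelled Healthy was 1.45 (1.26 to 1.65) by 3 markers and 2.70 (2.25 to 3.22) in the enrichment gate. MTZ-treated was 0.676 times AS by 3 markers and 0.408 times (0.341 to 0.491) in the enrichment gate, and MTZ-preventive 0.721 and 0.448 times (0.377 to 0.536). Fibroblast Timp4 was low, at 16.6 CPM (13 to 20.8), 55.4 CPM (39.7 to 75.1), 12.8 CPM (9.83 to 16.4) and 29.8 CPM (26.3 to 33.6), the last being 14.4 CPM under the enrichment gate. There AS was 3.33 times the library labelled Healthy (2.22 to 4.95) and MTZ-treated 0.232 times AS (0.154 to 0.353), and AS was the high library in fibroblasts, smooth muscle and endothelial cells. Endothelial cells ranked above smooth muscle cells in all libraries except MTZ-treated, where smooth muscle cells ranked first. Smooth muscle cells also ranked first in AS under the enrichment gate, at 681 against 621 CPM, with overlapping limits.

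**Figure D5:**
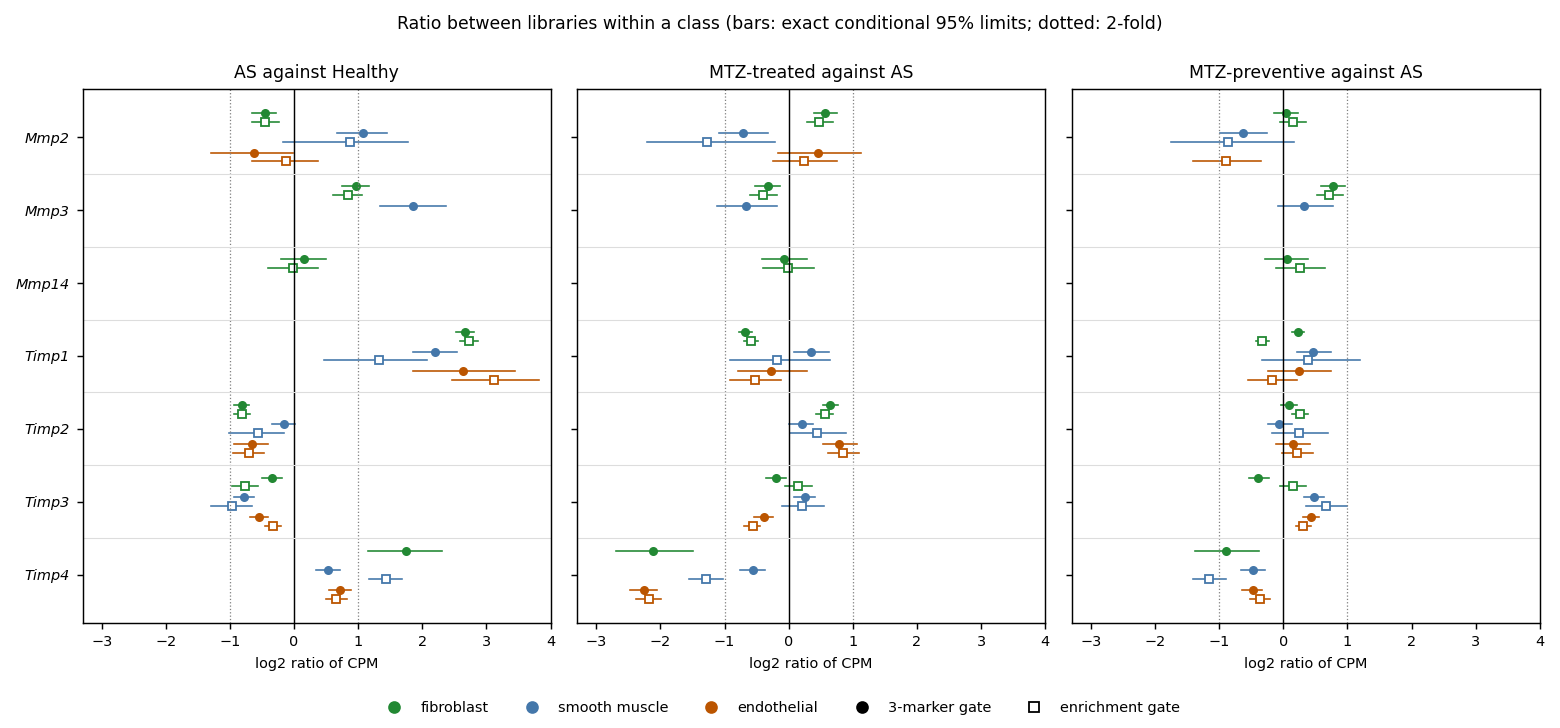
Log2 ratio of CPM (x axis) for AS to the library labelled Healthy, MTZ-treated to AS and MTZ-preventive to AS, in fibroblasts, smooth muscle cells and endothelial cells (colours), for Mmp2, Mmp3, Mmp14 and Timp1 to Timp4 where a member reached 50 CPM in either library. Bars are exact 95% limits from counts and dotted lines mark 2-fold. Timp1 lies right of 2-fold in all 3 classes in the first panel, and Timp4 of endothelial cells lies left of it in the second.

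Counted over members, a difference is called here where it was at least 2-fold and the gene reached 50 CPM in either library. For AS against the library labelled Healthy, 2 of the 7 fibroblast members that reached this level were higher (Timp1 and Timp4) and 0 lower. Under the enrichment gate Timp4 lay under 50 CPM in both libraries, and Timp1 was the 1 of 6, where 4.99% of genes were higher and 7.59% lower. Of all 2946 fibroblast genes at this level, 5.43% were higher and 7.94% lower. In endothelial cells 1 of 5 members was higher (Timp1), against 4.23% of genes higher and 6.36% lower. In smooth muscle cells 4 of 7 were higher (Mmp2, Mmp3, Mmp12 and Timp1), against 8.29% of genes higher and 10.4% lower. Under the enrichment gate 2 of 5 were higher (Timp1 and Timp4), against 5.78% of genes higher and 10.0% lower. By 3 markers the 4 smooth muscle members, fibroblast Timp4 and endothelial Timp1 reached 50 CPM in AS only. So did smooth muscle Timp1 under the enrichment gate. All of these could be called higher but not lower. Thus Timp1 was the only member past 2-fold in fibroblasts, smooth muscle and endothelial cells under both gates. In smooth muscle and endothelial cells it could not have been called lower. The median log2 ratio of members was 0.15 in fibroblasts, 1.05 in smooth muscle cells and -0.54 in endothelial cells, and that of all genes -0.02, -0.11 and -0.07. The smooth muscle median rests on the same filter.

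In macrophages 6 of 6 members (Mmp12, Mmp14 and the 4 inhibitors) were higher in AS than in the library labelled Healthy, against 24.3% of genes higher and 21.3% lower in this class of 33 and 85 cells. Of these 6, Mmp12, Mmp14, Timp1 and Timp4 had no UMI in the library labelled Healthy and Timp3 had 1. All but Timp2 thus reached 50 CPM in AS only and could be called higher but not lower. The 6 of 6 is therefore not read as a direction. Against the limit of 3 UMIs, Timp1 was at least 15.5-fold, Timp4 at least 2.95-fold and Mmp14 at least 2.22-fold higher. The exact lower 95% limits of these ratios were 12.4, 2.19 and 1.59, so counting error reaches below 2-fold for Mmp14. In the same macrophages the markers of other classes were also higher in AS, fibroblast markers at 1597 against 232 CPM, smooth muscle markers at 1546 against 556 CPM and endothelial markers at 539 against 81.1 CPM. Their part in the 6 differences was not tested. The median log2 ratio of the 6, with the genes without a UMI set at their bound, was 2.91. That of all genes, 0.12, was taken without such a bound and is not a like measure. The median of the 6 rests on the same filter.

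For MTZ-treated against AS, 1 of 7 fibroblast members was lower (Timp4), where 2.59% of genes were higher and 4.24% lower. Under the enrichment gate 0 of 6 passed, where 2.45% of genes were higher and 4.04% lower. In smooth muscle cells 1 of 7 was lower (Mmp12), where 5.40% were higher and 7.56% lower. Under the enrichment gate 2 of 5 were lower (Mmp2 and Timp4), where 4.56% of genes were higher and 6.50% lower, and Mmp2 reached 50 CPM there in AS only. In endothelial cells 1 of 5 was lower (Timp4), where 2.69% were higher and 5.34% lower. Macrophages had 1 of 6 members higher (Mmp12) and 4 lower (Mmp14, Timp1, Timp3 and Timp4), where 7.19% of genes were higher and 12.2% lower. The limits of the Mmp14 ratio, 0.198 to 1.06, included 1. As given above no order is read for Mmp12, whose log2 ratio of 1.65 fell between -3.59 and -0.66 under 4 alternatives. With looser limits on cells the log2 ratios of Timp1 and Timp3 were 0.00 and 0.14, which ends those differences. Timp1, Timp3 and Timp4 stayed past 2-fold in the enrichment gate, Mmp12, at 1.57 times, and Mmp14 did not, and Mmp2 was higher at 2.27 times (1.01 to 5.76, from 29 and 8 UMIs). By 3 markers, fibroblast Timp4, smooth muscle Mmp12 and macrophage Mmp14, Timp3 and Timp4 reached 50 CPM in AS only. These could be called lower but not higher, as could smooth muscle Mmp3, which did not pass 2-fold. The median log2 ratio of members was -0.20, -0.56, -0.26 and -1.57 in fibroblasts, smooth muscle cells, endothelial cells and macrophages, against 0.07, 0.16, 0.02 and -0.05 over all genes. These medians rest on the same filter.

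For MTZ-preventive against AS, 0 of 7 fibroblast members and 0 of 4 endothelial members passed 2-fold. The shares over all genes were 2.80% higher and 2.62% lower in fibroblasts, and 2.52% higher and 2.40% lower in endothelial cells. In smooth muscle cells 1 of 7 was lower (Mmp12), where 5.11% of genes were higher and 3.78% lower. Under the enrichment gate 1 of 5 was lower (Timp4), where 6.82% of genes were higher and 3.93% lower. Smooth muscle Mmp12 reached 50 CPM in AS only and could not be called higher. Median log2 ratios of members were 0.05, -0.06 and 0.19 in fibroblasts, smooth muscle cells and endothelial cells, and 0.01, 0.10 and 0.02 over all genes. The fibroblast and smooth muscle medians rest on the same filter, as fibroblast Timp4 also reached 50 CPM in AS only. All 3 comparisons use the AS library, so they are not independent of each other.

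The summed UMIs of the 4 inhibitors over those of the 6 proteases give a quotient of the family's UMIs. In fibroblasts it was 3.14 in the library labelled Healthy (3.02 to 3.26), 3.19 in AS (2.91 to 3.49), 2.83 in MTZ-treated (2.74 to 2.93) and 2.53 in MTZ-preventive (2.47 to 2.59). With at most 1 marker of any other class the first 2 were 2.89 and 2.30, and with looser limits on cells 4.16 and 2.87. The relation of AS to the library labelled Healthy thus depended on the cells kept, and none is read. Endothelial cells held 21.7, 15.1, 13.9 and 26.5 inhibitor UMIs per protease UMI, and 31.8, 71.6, 27.3 and 80.3 where cells had at most 1 marker of any other class. AS thus lay below the library labelled Healthy in the first set and above it in the second, so no order is read. In smooth muscle cells the quotient was 14.6, 2.53, 10.6 and 7.01 by 3 markers, and 19.7, 19.3, 13.6 and 12.5 under the enrichment gate. The low AS value was not seen among the 92 cells of that gate. In macrophages it was 2.56 in AS and 0.368 in MTZ-treated (0.617 under the enrichment gate), and Mmp12 alone made up 81.9% and 94.2% of the protease UMIs. With at most 1 marker of any other class it was 4.35 and 4.18, and with looser limits on cells 0.722 and 4.16, so no direction is read.

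Genes of the same pathway were read from lists of 16 other metalloproteinases, 9 ADAMTS proteases, 14 regulators and 12 matrix proteins. Among the other metalloproteinases, Mmp23 was the fibroblast gene, at 461, 207, 437 and 276 CPM in the libraries labelled Healthy, AS, MTZ-treated and MTZ-preventive. AS was 0.448 times the library labelled Healthy (0.378 to 0.528) and MTZ-treated 2.12 times AS (1.80 to 2.51). The same pair of libraries was high as for Mmp2 and Timp2. Mmp8, a collagenase of neutrophils, was at 64.2 CPM in AS smooth muscle cells and 0.180 CPM in those of the library labelled Healthy, beside neutrophil markers at 306 and 7.92 CPM. None of the 16 reached 50 CPM in macrophages or endothelial cells. Of the ADAMTS proteases, which cut proteoglycans and procollagens, 2 of 4 were lower and 0 higher in fibroblasts of AS than of the library labelled Healthy, where 7.94% of all fibroblast genes were lower. Adamts2, which trims procollagen, was at 129.6 against 389 CPM.

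Among the regulators, Serpine2, an inhibitor of plasminogen activators and other serine proteases, was in AS fibroblasts at 3.11 times the library labelled Healthy. In endothelial cells Ctss, a cathepsin of macrophages, was at 8.77 times in AS, beside the macrophage markers given above for these cells. Of the macrophage regulators, 7 of 10 were higher and 1 lower in AS (24.3% and 21.3% of all macrophage genes). The higher ones included the cathepsins Ctsl (5.44 times), Ctsb (3.54 times) and Ctss (3.23 times). A gene at 50 CPM in AS only could be called higher but not lower, so the 7 of 10 is not read as a direction.

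Of the matrix proteins, the substrates, that passed 2-fold in fibroblasts, smooth muscle or endothelial cells, most were lower in AS than in the library labelled Healthy. In fibroblasts 4 of 12 were lower and 1 higher, where 7.94% of all genes were lower and 5.43% higher. Eln, elastin, was at 228 CPM in AS against 1601 CPM in the library labelled Healthy (0.143 times), Col1a1 at 2839.5 against 11188 CPM (0.254 times), and Fn1, fibronectin, was the higher gene at 2.47 times. In smooth muscle cells 6 of 11 were lower and 0 higher, Eln at 0.159 times, where 10.4% of all genes were lower. In endothelial cells 3 of 12 were lower and 2 higher (6.36% and 4.23% of all genes), Eln at 0.196 times and Lamb1, a laminin chain, at 3.26 times. In MTZ-treated fibroblasts 0 of 12 were higher than in AS and 2 were lower (Col4a1 at 0.457 and Col4a2 at 0.399 times), where 4.24% of all genes were lower. In MTZ-preventive fibroblasts 4 were lower than in AS, Eln at 0.399 times, where 2.62% of all genes were lower. In MTZ-treated smooth muscle cells 0 of 11 were higher than in AS and 0 lower (5.40% and 7.56% of all genes). In MTZ-preventive 1 was higher and 0 lower (5.11% and 3.78%). Under the enrichment gate 5 of 11 were higher and 0 lower in each, where 4.56% and 6.82% of all genes were higher. In endothelial cells by 3 markers 1 of 12 was higher and 3 lower in MTZ-treated (2.69% and 5.34%). In MTZ-preventive 1 was higher and 4 lower (2.52% and 2.40%). In macrophages 9 of 11 were higher in AS than in the library labelled Healthy and 9 of 10 were lower in MTZ-treated than in AS, in the order of the fibroblast markers given above for these cells, where 24.3% of all genes were higher in the first comparison and 12.2% lower in the second. These counts were 4 of 11 higher and 5 of 11 lower under the enrichment gate, where 21.4% of all genes were higher in the first comparison and 9.26% lower in the second. A gene at 50 CPM in AS only could be called higher in the first comparison and lower in the second, not the reverse. Neither set of macrophage counts is therefore read as a direction. Col1a1 and Dcn are also markers that gated the fibroblasts.

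Early response genes, which tissue dissociation is known to raise, differed between the libraries too. The 12 of them summed in fibroblasts to 14088, 10143, 10206 and 18059 CPM in the libraries labelled Healthy, AS, MTZ-treated and MTZ-preventive, and Fos to 3753, 2389.9, 2935 and 4949 CPM. Mmp3 was highest in MTZ-preventive, where these were highest, while both Mmp3 and Timp1 were lowest in the library labelled Healthy, where these were higher than in AS. Their part in the members' levels was not tested.

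Over the 15 profiles of 4 classes and 4 libraries, log levels of the members were set beside those of 5195 genes as a description. The profiles share libraries and depth, and mostly separate the classes. Mmp2 was most like Bmp1, Ccdc80 and Mfap5 (Pearson's r 0.97 each), and Mmp3 like Wnt11 (0.99). Timp1 was most like Pdpn (0.94), Timp2 like Steap3 (0.95) and Timp3 like Fzd4, Lims2 and Fbln5 (0.98 each). Mmp12 was most like Pilra (0.93) and Clec4d (0.90), genes of myeloid cells. Among the members, the closest pairs were Mmp14 and Timp1 (0.91), Mmp2 and Mmp14 (0.89), and Timp3 and Timp4 (0.86).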

How the data were processed

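The authors deposited gene-by-cell matrices of raw UMI counts, 1 per library, which the file headers give as made with Cell Ranger 5.0.0. The submitters' processing notes name STAR and mm10. The deposited counts were used as they stood, for 21857, 6908, 20938 and 23963 barcodes in the libraries labelled Healthy, AS, MTZ-treated and MTZ-preventive. Cells were kept with over 200 genes, over 1000 UMIs, log10 genes over log10 UMIs above 0.7, under 10% mitochondrial and under 5% hemoglobin UMIs. Doublets were marked by simulation (2 simulated per cell, 2000 variable genes, 30 components, an assumed 0.8% per 1000 cells) and left out.

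Cells were classed by detected markers, strictly most and at least 3, and subsets of a class by at least 2. UMIs were summed per class and library (at least 20 cells) and scaled to CPM, with exact Poisson limits. Ratios carry exact binomial limits and shares Clopper-Pearson limits, all at 95%. A count of 0, of UMIs or of cells with a UMI, is given the limit of 3 counts in place of these limits, 0.0914 to 0.799 CPM over a whole library. Because each group was 1 pooled library, no test was run and the paired, replicate and leave-one-out fits do not arise. A difference is at least 2-fold among genes at 50 CPM or more in either library. Genes named are the members, and of the pathway lists some of those past 2-fold. Some results on other genes are not reported here. The members, lists and markers were chosen with earlier results of these data known, and the enrichment gate after the data were seen. Alternatives were other marker minimums, cell limits, gates, totals, TMM factors (edgeR 4.0.16 in R 4.3.3), thinning to 1000 UMIs (each cell drawn once with a fixed seed, and none left out since all had more), doublets kept, a mean over cells, a 1.5-fold limit and no CPM minimum. With no CPM minimum a gene needed a UMI in both libraries. The ratio code was tested on simulated data for AS against the library labelled Healthy in fibroblasts (2617 genes, 200 of them changed), where 96.4% of the limits held the true ratio. The simulated sums were drawn as Poisson counts, the form that the limits assume. This checks the code only, since UMIs gathered in few cells were not simulated. Python 3.11.15, numpy 2.4.6, scipy 1.17.1 and scikit-learn 1.9.0 were used. Receptor libraries of B and T cells were not used here.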

Additional observations from a re-analysis of the deposited data

Results flagged for a closer look

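Mmp12 differed in opposite directions between MTZ-treated and AS in 2 classes, at 3.14 times AS in macrophages and 0.00435 times AS in smooth muscle cells. The difference between the classes was not tested. The macrophage ratio rests on a few cells: its log2 value of 1.65 was 0.11 without the 3 highest cells of each library and -0.66 to -3.59 under 4 alternatives, so no direction is read from it. In AS the smooth muscle gate held myeloid genes (Lyz2 at 616 CPM), and its 92 cells under the enrichment gate held no Mmp12 UMI.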

How the results depend on the processing

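No paired analysis was possible because each group was 1 pooled library, and for the same reason no replicate could be left out. Members that reached 50 CPM were counted once per class over fibroblasts, smooth muscle and endothelial cells. Past 2-fold were 7 of 19 for AS against the library labelled Healthy, and 3 of 19 and 1 of 18 for MTZ-treated and MTZ-preventive against AS. In macrophages they were 6 of 6 and 5 of 6 for the first 2 comparisons. The shares over all genes are given above by class. All 5 counts stayed within 1.5 times with TMM factors, with 2 or 4 markers, with doublets kept, with thinned cells, with a mean over cells and with mitochondrial, hemoglobin and ribosomal protein genes taken out of the totals. The enrichment gate gave 4 of 16 for the first. With no minimum CPM a gene instead needed a UMI in both libraries, and the counts were 11 of 26, 8 of 27 and 2 of 26. In macrophages of AS the count was then 3 of 3, since members without a UMI in the library labelled Healthy fell out. These 3 included Mmp13, with 1 UMI in each library. A 1.5-fold limit gave 13 of 19, 8 of 19 and 4 of 18. Looser limits on cells gave 3 of 7 in MTZ-treated macrophages and 3 of 19 for MTZ-preventive. Allowing at most 1 marker of any other class gave 0 of 13 for MTZ-preventive. TMM factors shifted every log2 ratio of a comparison by -0.03 to 0.26, the largest for macrophages of AS against the library labelled Healthy, and by 0.13 for fibroblasts of MTZ-treated against AS.

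The log2 ratio of Mmp12 in macrophages of MTZ-treated to AS, 1.65, turned to -1.66 with at most 1 other marker, -3.59 with looser limits, -0.66 as a mean over cells and -0.90 when thinned. Thinning and a mean over cells weigh cells more evenly by construction. In the same cells Mmp14 turned to 0.47 with at most 1 other marker, and with looser limits Timp1 came to 0.00 and Timp3 to 0.14. The log2 ratio of Mmp3 in smooth muscle cells of AS to the library labelled Healthy turned to -0.17 in the enrichment gate, where AS held 1 UMI. No direction is read from it. Other causes of these changes were not tested.

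In the library order used throughout, the quotient of inhibitor to protease UMIs with at most 1 other marker was 2.89, 2.30, 2.34 and 1.97 in fibroblasts, 29.9, 9.88, 27.3 and 18.5 in smooth muscle cells, 31.8, 71.6, 27.3 and 80.3 in endothelial cells, and 4.35 and 4.18 in macrophages of AS and MTZ-treated. Looser limits gave 4.16, 2.87, 3.10 and 2.67 in fibroblasts, 12.2, 1.64, 7.88 and 6.46 in smooth muscle cells, 0.722 and 4.16 in macrophages, and in endothelial cells 44.6 (Healthy), 19.8 (MTZ-treated) and 30.3 (MTZ-preventive). A mean over cells gave 10.6, 2.05, 8.20 and 5.52 in smooth muscle cells, 3.78 and 3.57 in the first 2 fibroblast libraries, 16.7 in endothelial cells and 1.33 in macrophages of MTZ-treated. Thinning gave 10.9, 2.04, 7.96 and 5.62 in smooth muscle cells, 3.81 and 3.58 in the first 2 fibroblast libraries, 1.33 in MTZ-treated macrophages, and in endothelial cells 17.7 (Healthy), 17.5 (MTZ-treated) and 22.5 (MTZ-preventive). The enrichment gate gave 19.7, 19.3, 13.6 and 12.5 in smooth muscle cells, 2.99 and 2.27 in fibroblasts of the libraries labelled Healthy and MTZ-preventive, 11.3 and 21.5 in endothelial cells of MTZ-treated and MTZ-preventive, and 0.617 in MTZ-treated macrophages. Keeping doublets gave 16.0 in endothelial cells of MTZ-preventive. Depth limits Mmp13 in all classes and most members in the 33 macrophages of the library labelled Healthy.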

Other observations

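Other classes of cells held some of the inhibitors at levels like those of the vessel wall. Lymphatic endothelial cells held Timp3 at 1478 CPM in the library labelled Healthy, 976 CPM in MTZ-treated and 1789 CPM in MTZ-preventive, and Timp2 at 792, 496 and 583 CPM. Schwann cells, the glia of nerves, held Timp3 at 991 CPM in the library labelled Healthy and 639.8 CPM in MTZ-preventive. Cells gated as adipocytes held Timp4 at 191 CPM in AS and 37.7 CPM in MTZ-preventive.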
